A study of Mus musculus with 41 samples.

Results

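The sites described here are 5643 ChIP-seq peaks of 3T3 cells that stand in the peak list named for Runx2 at day 0 of osteogenic culture. None of them touches a base of any peak in the list named for Runx2 at day 3. They are 5643 of the 31013 day 0 peaks, or 18.2% (95% Wilson interval 17.8 to 18.6%). They were chosen by measured values, namely the presence of a peak in one list and its absence from the other, so this share is a description of the selection. The other 25370 day 0 peaks overlapped a day 3 peak by at least 1 bp and are called held sites. The selected peaks are called day 0-only sites rather than lost sites, because 49.5% of them lay within 500 bp of a day 3 peak, as given below.

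Runx2 is a DNA-binding transcription factor of the Runt family that acts with its partner CBFB, and it is required for osteoblast formation and contributes to the maturation of chondrocytes. A ChIP-seq peak is a stretch of genome that is recovered with an antibody more often than its surroundings. In skeletal cells Runx2 is known to bind mostly at enhancers away from gene starts, often beside other factors such as the AP-1 proteins, of which Jun is one.

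The study deposited 8 peak lists that were used here, out of 41 samples in 24 groups. The 3T3 mouse fibroblasts overexpressed either Runx2 carrying the BioFL tag or GFP, and FLAG ChIP was done at day 0 or after 3 days in osteogenic medium, with 1 library per group. That medium held 100 ng/ml BMP2, 50 µg/ml ascorbic acid phosphate and 10 mM glycerophosphate. The primary lists came from C57BL/6 mice at postnatal day 1: Runx2 FLAG ChIP in rib chondrocytes and in calvarial osteoblasts of Runx2-BioFL/+ knock-in animals, with 2 libraries each, and, in wild-type animals with 1 library each, Foxa2 ChIP in rib chondrocytes and Jun ChIP in calvarial osteoblasts. Foxa2 is a forkhead transcription factor of hypertrophic chondrocytes. The vector that drove Runx2 or GFP in the 3T3 cells is not given in the sources used here. The number of pooled animals is not stated either. Overexpressed Runx2 in a fibroblast line and tagged Runx2 at its own locus in primary cells are different sources of the protein.

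The labels of 2 of the 4 lists from 3T3 cells go against their names. The list named for Runx2 day 0 is assigned to the sample titled GFP at day 3, and the list named for GFP day 3 is assigned to the sample titled Runx2 at day 0. Lists were taken by name. The list named for Runx2 day 0 overlapped Runx2 day 3 in 81.8% of its peaks, against 41.9% for the list named for GFP day 3. Its overlap with chondrocyte Runx2 was 27.2% against 14.7%, and with osteoblast Runx2 20.7% against 15.1%. With the 2 lists exchanged, 9755 of 16799 peaks (58.1%) would be day 0-only. Each statement on day 0 below therefore holds for the list of that name, and each statement on "the list named for GFP day 3" is a statement on a list that its sample label calls Runx2 day 0.

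The lists give the chromosome, start and end of each peak and no height, so depth is unknown and a weak peak cannot be told from a strong one. The day 0 list held 31013 peaks of median width 190 bp, and the day 3 list 50180 of 213 bp. With 1 list per group there was no replicate, and no difference between lists was tested. Chromosomes counted below are parts of these same lists and are not replicates. Intervals cover only counting error, since peaks that lie close together are not independent. No mm9 genome or annotation was used here, so sites are given by coordinates without genes or sequences.

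The day 0-only sites overlapped the Runx2 lists of primary skeletal cells less often than the held sites did. Of the 5643 day 0-only sites, 593 or 10.5% (9.74 to 11.3%) overlapped an osteoblast Runx2 peak, against 23.0% (22.4 to 23.5%) of held sites and 20.7% of the whole day 0 list. The difference was -12.4 points (95% Newcombe interval -13.4 to -11.5), and the share was lower on 20 of 20 chromosomes. For chondrocyte Runx2 the counts were 837 sites or 14.8% (13.9 to 15.8%), against 30.0% of held sites and 27.2% of the whole list. This difference was -15.2 points (-16.2 to -14.1), again lower on 20 of 20 chromosomes. Runx2 of at least 1 primary cell type was found at 1175 day 0-only sites, or 20.8%, against 38.6% of held sites and 35.4% of the whole list. Weighting the held sites to the file order of the day 0-only sites, as described further on, brought the differences to -2.03 points for osteoblast and -4.16 points for chondrocyte Runx2.

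Sites shared by both primary cell types were the least represented among the primary Runx2 overlaps. Both Runx2 lists were met at 255 day 0-only sites, or 4.52% (4.01 to 5.09%), against 14.3% of held sites. Among the 1175 day 0-only sites with primary Runx2, 21.7% (19.4 to 24.1%) had it in both cell types, against 37.0% (36.1 to 38.0%) of the corresponding held sites. Neither comparison was weighted to file order, along which overlap with each primary Runx2 list fell, as described further on. The remainder divided between the lineages much as in the held sites: 582 sites were in the chondrocyte list only and 338 in the osteoblast list only, a ratio of 1.72 against 1.81.

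Jun, which pairs with Fos proteins in the AP-1 complex, had a peak in osteoblasts at 712 day 0-only sites, or 12.6% (11.8 to 13.5%). The held sites had 20.1% and the whole day 0 list 18.7%. The difference was -7.45 points (-8.43 to -6.44) and was found on 20 of 20 chromosomes. With held sites weighted to the file order of the day 0-only sites, as described further on, it was -0.41 points. Unweighted, Jun was less frequent both beside primary Runx2 and away from it. Among sites with primary Runx2, Jun was at 21.8% (19.5 to 24.2%) of day 0-only, 29.6% of held and 28.7% of all day 0 sites. Among sites without primary Runx2, it was at 10.2% (9.35 to 11.1%) of day 0-only, 14.1% of held and 13.2% of all day 0 sites.

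Foxa2 in chondrocytes was met at about the same share of both kinds of site. It overlapped 199 day 0-only sites, or 3.53% (3.08 to 4.04%), 3.37% of held sites and 3.40% of the whole list. The interval of the difference ran from -0.35 to 0.71 points, and the day 0-only share was lower on 9 of 20 chromosomes. Where a day 0-only site had Foxa2, it had chondrocyte Runx2 as well in 46.7% of cases, against 13.7% of the day 0-only sites without Foxa2. The same pair of shares was 62.9% and 28.8% in held sites and 59.9% and 26.1% in the whole list.

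FLAG ChIP in 3T3 cells with GFP serves as the control of the Runx2 libraries, but of the lists named for GFP only the day 0 list has a sample label that says GFP. GFP day 0 overlapped 172 day 0-only sites, or 3.05%, against 4.66% of held sites and 4.37% of the whole list. The list named for GFP day 3, the one with the crossed label, overlapped 801 sites or 14.2% (13.3 to 15.1%), against 23.3% of held sites and 21.6% of the whole list. With held sites weighted to file order these differences changed side, to 0.19 and 2.81 points. A peak in at least 1 of these lists was found at 895 day 0-only sites, or 15.9%, against 25.1% of held sites and 23.4% of the whole list. Such a peak without any primary list beside it was found at 8.93% of day 0-only sites, against 8.33% of held sites.

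**Figure D1:**
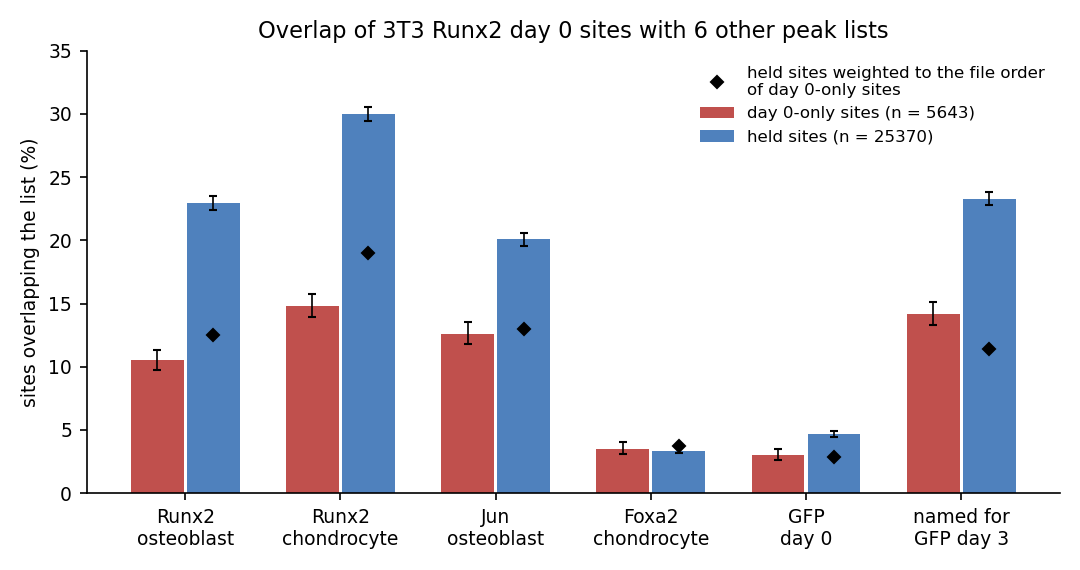
Share of sites (percent) that overlap each of 6 peak lists not used in the selection, for 5643 day 0-only sites (red) and 25370 held sites (blue), with 95% Wilson intervals. Black diamonds give the held share weighted to the file order of the day 0-only sites. The red bars stand below the blue ones for 5 lists and level with them for Foxa2, and for those 5 lists the diamonds lie nearer to the red bars than the blue bars do.

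Most day 0-only sites were met by no other list. None of the 6 lists overlapped 3415 of them, or 60.5% (59.2 to 61.8%), against 43.3% of held sites and 46.5% of the whole day 0 list. With held sites weighted to file order, as described further on, the held share was 60.2% and the difference 0.28 points. The other shares in this paragraph were not weighted. A single list overlapped 1402 sites (24.8%), which was near the 25.8% of held sites, while 4 or more lists overlapped 28 sites, or 0.496%, against 3.54%. As the only list of the 6, the one named for GFP day 3 was met at 406 day 0-only sites (7.19%, against 6.78% of held sites and 6.86% of the whole list) and chondrocyte Runx2 at 342 (6.06%, against 8.36% and 7.94%). Jun alone was met at 5.28%, against 4.75% and 4.85%, osteoblast Runx2 alone at 3.65%, against 4.14% and 4.05%, and Foxa2 alone at 1.54%, against 0.997% and 1.10%. The sites with the most lists were chr6:71443903-71444040 and chr4:108673141-108673343, both with primary Runx2 of both cell types, Jun and both GFP lists. These lay only 71 bp and 20 bp from a day 3 peak. No day 0-only site had all 6 lists, and 3 held sites did.

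The day 0-only sites were gathered towards the end of the day 0 list. The order of the peaks in the file follows no coordinate and its meaning is not given in the sources used here. In the first of 10 equal parts of the list 69 peaks (2.22%) were day 0-only, and the share went up in every further part to 1240 peaks (40.0%) in the last. The last 5 parts held 4182 sites, or 74.1% of all day 0-only sites. Their median place was 72.7% of the way down the list, against 44.8% for held sites. Held sites and the day 3 peaks they overlapped had a Spearman correlation of 0.83 between their places in the 2 files (n = 25370 peaks, which are not independent).

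Overlap with the other lists also moved with file order, in both kinds of site. In the first part chondrocyte Runx2 overlapped 39.1% of day 0-only and 66.0% of held sites, and in the last part 8.47% and 11.5%. Osteoblast Runx2 went from 39.1% and 58.5% in the first part to 5.24% and 5.32% in the last. When the held sites were weighted to the file order of the day 0-only sites, the held share for osteoblast Runx2 became 12.5%, and the difference narrowed from -12.4 to -2.03 points, lower in 8 of 10 parts. For chondrocyte Runx2 the weighted held share was 19.0% and the difference -4.16 points, lower in 9 of 10 parts. For Jun the difference was -0.41 points and for sites without any of the 6 lists 0.28 points. Foxa2 stood at -0.23 and GFP day 0 at 0.19 points.

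The list named for GFP day 3 changed its side under this weighting. Its weighted held share was 11.4%, against 14.2% in day 0-only sites, a difference of 2.81 points, and it was lower in day 0-only sites in only 2 of 10 parts. In parts 4 and 5 of the file it overlapped 40.1% and 32.8% of day 0-only sites against 32.8% and 20.9% of held sites. Weighting the held sites by width instead left the differences near their unweighted values, at -12.2 points for osteoblast Runx2, -14.8 for chondrocyte Runx2, -7.60 for Jun and -9.76 for the list named for GFP day 3.

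**Figure D2:**
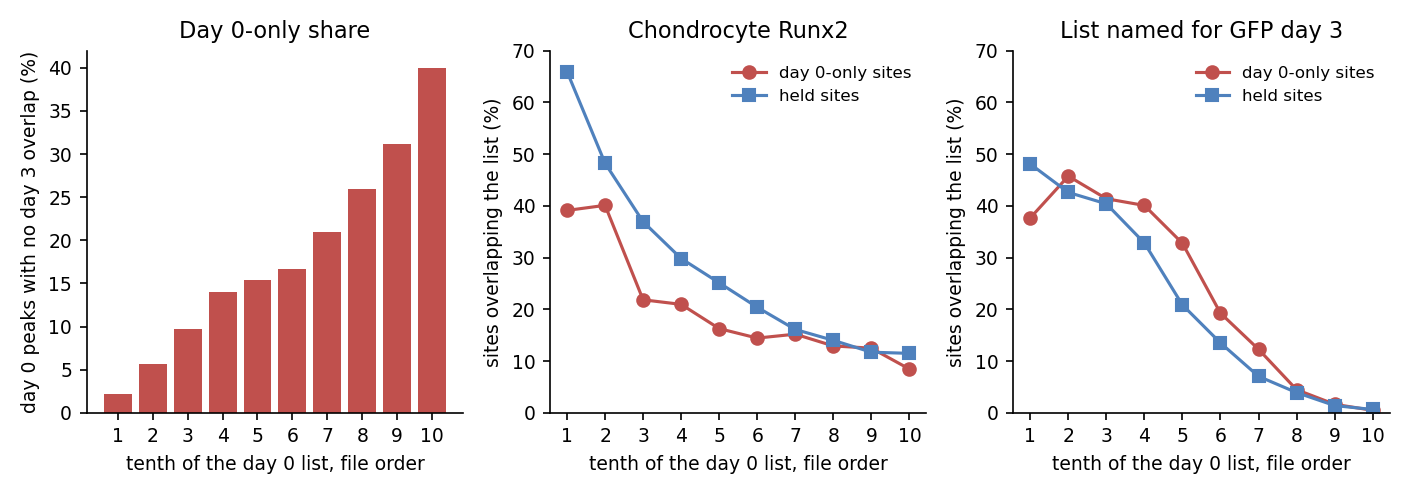
Left: percent of day 0 peaks in each of 10 parts of equal size, in file order, that overlap no day 3 peak, rising from 2.22% to 40.0%. Middle and right: percent of day 0-only (red) and held (blue) sites overlapping chondrocyte Runx2 (middle) and the list named for GFP day 3 (right). Red and blue differ in order between panels: red points lie under the blue ones for chondrocyte Runx2 in 9 of 10 parts, and for the list named for GFP day 3 in 2 of 10.

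The gap to the nearest day 3 peak divided the day 0-only sites. It was 517 bp at the median, with quartiles of 147 and 6326 bp and a longest value of 1590762 bp. Within 100 bp lay 1092 sites (19.4%), within 500 bp 2791 sites (49.5%, 48.2 to 50.8%) and within 1000 bp 3278 sites (58.1%). At the other end 1567 sites (27.8%) were over 5 kb away and 296 over 50 kb away. Of the held sites, 30.4% had a further, non-overlapping day 3 peak within 500 bp, and of the day 3 peaks that overlapped no day 0 peak, 18.1% had a day 0 peak within that distance.

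The threshold of the selection passes through a dense part of this distribution. Just outside it, 18 day 0-only sites adjoined a day 3 peak with a gap of 0 bp, among them chr3:136332871-136332886, a peak of 16 bp with Jun, and chr9:102626571-102626737 with osteoblast Runx2 and Foxa2. Just inside, 9 held sites overlapped a day 3 peak by 1 bp, one of them chr13:4770780-4770956, which had Runx2 of both primary cell types and Jun. Held sites overlapped day 3 by 151 bp at the median, and 203 of them by 10 bp or less. Of the 2791 day 0-only sites within 500 bp of day 3, the nearest day 3 peak overlapped another day 0 peak in 1527 cases (54.7%) and no day 0 peak in 1264 cases (45.3%). In the whole day 3 list 24409 of 50180 peaks overlapped no day 0 peak, which is a similar share.

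**Figure D3:**
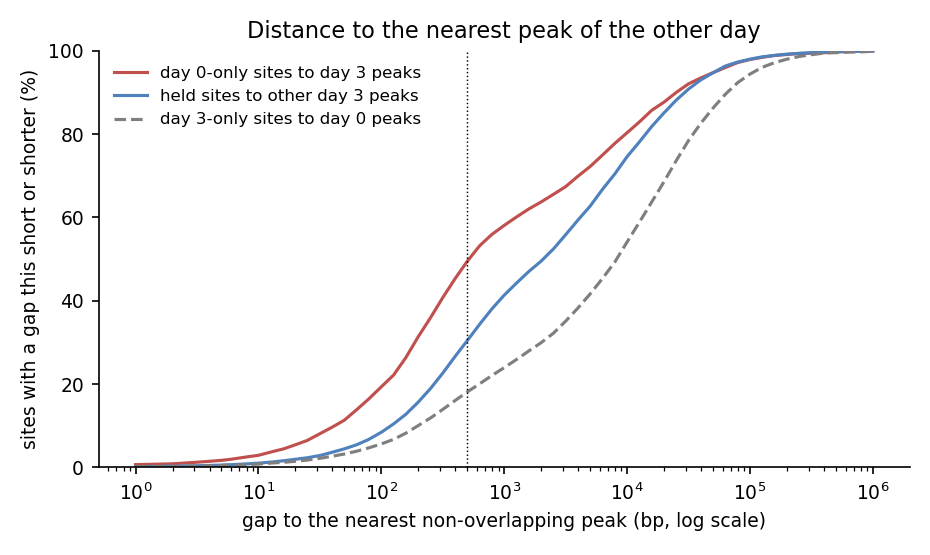
Cumulative percent of sites against the gap to the nearest non-overlapping peak of the other day (bp, log scale), for day 0-only sites to day 3 peaks (red), held sites to other day 3 peaks (blue) and day 3-only sites to day 0 peaks (dashed grey). At 500 bp (dotted line) the curves stand at 49.5%, 30.4% and 18.1%.

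Sites near to and far from day 3 peaks differed in the lists they met. The list named for GFP day 3 overlapped 25.3% of the 1092 sites within 100 bp, 16.9% of the 1699 sites from there to 500 bp and 8.17% of the 1285 sites beyond 500 and up to 5000 bp. It overlapped 9.21% of the 1271 sites beyond 5 and up to 50 kb and 5.41% of the 296 sites over 50 kb away. GFP day 0 went from 6.59% in the nearest class to 0.338% in the farthest, and Jun from 18.6% to 6.42%. Chondrocyte Runx2 did not share this course, with 15.2% in the nearest class, 13.5% in the next and 18.6% in the farthest, and osteoblast Runx2 stood between 9.06% and 12.9% in all 5 classes. Foxa2 was at 2.20% of the nearest sites and at 4.28 to 4.56% of the classes over 500 bp.

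File order moved with the gap too, since the median place was 57.4% of the way down the list in the nearest class and 82.9% in the farthest. Within the last 50% of the list, the nearest and the farthest class stood at 12.6% and 2.72% for the list named for GFP day 3, at 13.2% and 5.84% for Jun and at 11.6% and 17.1% for chondrocyte Runx2. Each gap class was also set against held sites weighted to its own file order. For the 2791 sites within 500 bp, osteoblast Runx2 was at 10.6% against 14.6% and chondrocyte Runx2 at 14.2% against 21.3%, while the list named for GFP day 3 was at 20.2% against 14.5%. For the 2852 sites over 500 bp away, osteoblast Runx2 was at 10.4% against 10.5%, chondrocyte Runx2 at 15.5% against 16.8% and the list named for GFP day 3 at 8.35% against 8.37%. The 1567 sites over 5 kb away met chondrocyte Runx2 in 16.1% of cases, the same as the weighted held share of 16.1%, and GFP day 0 in 0.638% (0.347 to 1.17%) against 2.21%. The differences left after weighting were thus -4.06 and -7.08 points for osteoblast and chondrocyte Runx2 within 500 bp of a day 3 peak, and -0.04 and -1.31 points beyond it. The contrast between the near and the far sites was not tested.

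**Figure D4:**
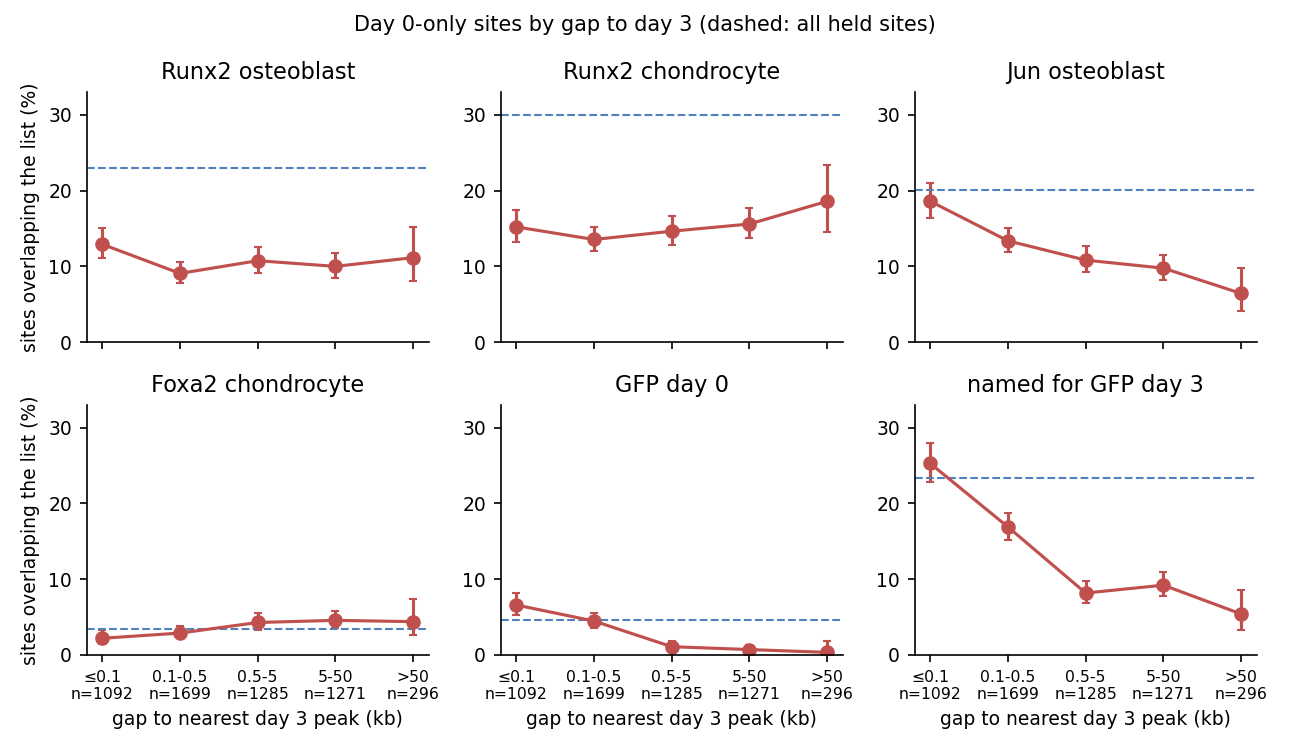
Percent of day 0-only sites overlapping each of 6 lists in 5 classes of the gap to the nearest day 3 peak (kb), with 95% Wilson intervals and n under each class. Dashed lines give the share of all held sites. GFP day 0 and Jun are lower in each further class. For the list named for GFP day 3 the share is lower in the farthest class (5.41%) than in the nearest (25.3%), with 8.17% and 9.21% in the classes between 0.5 and 50 kb. Osteoblast Runx2 stays between 9.06% and 12.9%, and chondrocyte Runx2 between 13.5% and 18.6%.

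The far sites hold single examples of primary skeletal Runx2 binding with no day 3 peak nearby. Of the 296 sites over 50 kb away, 55 met chondrocyte Runx2 (18.6%, against 27.2% of the whole day 0 list), 33 osteoblast Runx2 (11.1%, against 20.7%) and 16 both (5.41%, against 12.5%). None of the 6 lists was met at 199 of them (67.2%, against 46.5%). These sites lay late in the file, with a median place of 82.9%, and were not weighted to file order on their own. For all sites over 5 kb away, chondrocyte Runx2 stood at 16.1% against 16.1% of weighted held sites, and osteoblast Runx2 at 10.2% against 9.90%. None of the 6 lists was met at 65.3% against 65.9%. The site chr14:10169663-10169827, 980939 bp from the nearest day 3 peak, had chondrocyte Runx2 and Foxa2. The 2 sites still farther away, chr1:102076725-102076959 and chr7:22051069-22051282, had no other list. Among the widest sites, chr13:28822020-28822514 lay 7824 bp from day 3 and had osteoblast Runx2, and chr4:134290246-134290739 lay 20022 bp away and had Jun, osteoblast Runx2 and a peak of the crossed list. The widest site, chr5:145877260-145877755 with 496 bp, had Runx2 of both primary cell types and a day 3 peak 174 bp away.

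Day 0-only sites were few at the top of the file, and those were mostly close to day 3 peaks. Of the 69 sites in the first of 10 parts, 58 lay within 500 bp and 65 within 1000 bp of a day 3 peak, and 38 met primary Runx2. Over all day 0-only sites these shares were 49.5%, 58.1% and 20.8%. Osteoblast and chondrocyte Runx2 each overlapped 39.1% of the 69, against 58.5% and 66.0% of the held sites of that part. The first of the 69, chr4:125938661-125938839 at place 67 in the list, had Runx2 of both primary cell types and a gap of 612 bp. The next, chr5:33994689-33994798 at place 99, missed a day 3 peak by 4 bp. Only 2 of the 69 were over 5 kb from day 3: chr5:74586862-74587265, which had osteoblast Runx2, and chr15:50231649-50231830, which had no other list.

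In width the day 0-only sites were close to the held ones, with medians of 197 and 189 bp and quartiles of 148 and 253 against 149 and 246 bp. The narrowest peaks stood apart: of 756 day 0 peaks of 50 bp or less, 261 were day 0-only (34.5%, 31.2 to 38.0%), against 15.2% of the peaks over 100 and up to 150 bp wide. Of those 261 narrow sites, 80.5% had a day 3 peak within 500 bp. Of the narrow held sites, 57.4% had a further, non-overlapping day 3 peak within that distance. Another day 0 peak lay within 500 bp of 38.9% of day 0-only and 34.4% of held sites, whereas 4.43% of day 0-only and 15.3% of held sites overlapped another peak of their own list. The median gap to the nearest day 0 peak that did not overlap the site was 1443 bp for day 0-only and 4169 bp for held sites. Overlapping neighbours were left out of this gap.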

How the data were processed

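FLAG, Foxa2 and Jun ChIP-seq of 3T3 cells and of primary mouse chondrocytes and osteoblasts is represented by 8 peak lists. The authors deposited peak coordinates (chromosome, start, end) with no score, so signal strength and depth are unknown. The submitters' processing notes name the build mm9 and the tools Bowtie and DiffBind, without their steps. The peak caller is not given in the sources used here. Its threshold, the controls and any pooling of replicates are not stated either.

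Peaks overlapped where they shared at least 1 bp. Shares carry Wilson and differences Newcombe intervals at 95%, and nothing was tested. Overlaps were computed in Python 3.11.15 with NumPy 2.4.6, pandas 2.3.3 and SciPy 1.17.1, and drawn with matplotlib 3.10.9. They were checked with bedtools 2.31.1 (56 ordered pairs of lists, 0 differing) and on simulated peaks. Starts are written 1-based. Held sites were also weighted to the file order or width of the day 0-only sites in 10 equal parts. Sites named were the 3 widest, first in file, with most lists, nearest to and farthest from day 3, and the 3 windows of 1 Mb with the largest day 0-only share among those with 20 or more day 0 peaks, plus the 3 held sites with the shortest overlap. Sites and lists were chosen with earlier results of these data known. The 2 sites of the first of 10 parts over 5 kb from day 3 were named after their values were seen. Motif and nearest-gene results were not run, since no mm9 genome or annotation was used. ATAC-seq and input libraries were not analysed here. Alternatives changed the overlap rule, peak widths, the sets of peaks and the crossed lists.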

Additional observations from a re-analysis of the deposited data

How the results depend on the processing

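Over 85 pairs of a result and an alternative, 34 values moved by less than their counting interval and kept their direction, 43 moved by more with the same direction and 8 reversed. The share of day 0 peaks with no day 3 overlap, 18.2%, became 22.5% where an overlap had to cover 50% of the shorter peak, 16.3% with centres within 250 bp, 9.20% where a gap of up to 500 bp counted as overlap, 9.42% in the first 50% of the file, 19.5% in the wider 50%, 19.99% without peaks in either GFP list and 58.1% with the crossed lists exchanged. The values that follow are day 0-only minus held shares in points. A changed overlap rule was applied to day 3 and to the 6 lists alike, so the shares themselves also moved. With gaps of up to 500 bp counted, GFP day 0 met 9.70% of held sites instead of 4.66%. With 50% of the shorter peak required they were -11.3 for osteoblast Runx2, -4.93 for Jun, -0.27 for Foxa2 (reversed), -0.78 for GFP day 0 and -6.13 for the list named for GFP day 3. With centres within 250 bp the last 2 were -2.18 and -12.5. With gaps of up to 500 bp counted as overlap they were -15.4 for osteoblast Runx2, -18.9 for chondrocyte Runx2, -15.3 for Jun, 0.92 for Foxa2, -7.39 for GFP day 0 and -19.1 for the list named for GFP day 3. In the first 50% of the file the same lists, in that order, gave -15.5, -19.2, -4.56, -1.26 (reversed), -0.49 and 1.10 (reversed). In the wider 50% osteoblast Runx2 gave -10.4, chondrocyte Runx2 -13.4, Jun -9.04, GFP day 0 -2.56 and the list named for GFP day 3 -14.0. Without peaks in either GFP list the values were -9.15 for osteoblast Runx2, -12.7 for chondrocyte Runx2, -4.35 for Jun and -0.18 for Foxa2 (reversed). With the crossed lists exchanged they were -21.2, -22.9, -18.2 and -0.33 (reversed) for those 4, -8.37 for GFP day 0 and -62.2 for the list then taken as GFP day 3. The cause was not tested for any of these.

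3 alternatives were chosen after seeing the data. Without the day 0-only sites within 500 bp of day 3, Jun gave -10.2, Foxa2 1.05, GFP day 0 -3.82 and the list named for GFP day 3 -15.0. With held sites weighted to file order the values were -2.03 for osteoblast Runx2, -4.16 for chondrocyte Runx2, -0.41 for Jun, -0.23 for Foxa2 (reversed), 0.19 for GFP day 0 (reversed) and 2.81 for the list named for GFP day 3 (reversed). Weighting to width moved none beyond its interval. The motif and nearest-gene alternatives were not run. No paired analysis was possible because each group had 1 list and no test was made. Without peak heights or depth, a peak under the calling threshold at day 3 and a site free of Runx2 cannot be told apart.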

Other observations

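Day 0-only sites were found on all 20 chromosomes with day 0 peaks, at 16.3% of the day 0 peaks of chr8 to 20.8% of those of chr13, and at 54 of 275 (19.6%) on chrX. In 602 windows of 1 Mb with at least 20 day 0 peaks, the day 0-only share had a median of 17.4%, quartiles of 12.8 and 22.7% and a range of 0 to 43.5%, and 3 windows had none. The highest shares were 10 of 23 peaks in chr7:120000001-121000000, 11 of 26 in chr7:3000001-4000000 and 15 of 37 in chr13:60000001-61000000. In these windows 5 of 10, 5 of 11 and 8 of 15 sites were over 500 bp from a day 3 peak, near the 50.5% of all day 0-only sites.

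Along the genome, 3586 day 0-only sites (63.5%) had no other day 0-only site next to them in the day 0 list, and 715 pairs, 131 runs of 3, 41 of 4 and 14 of 5 followed each other without a held peak between them. Pairs and runs also arise without clustering at a day 0-only share of 18.2%. The number to expect was not computed, so these counts do not show whether the sites cluster.

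Osteoblast Runx2 coincided with Jun and chondrocyte Runx2, and Jun with the list named for GFP day 3, in both kinds of site. Jun and Foxa2 went the other way, though the intervals overlapped in day 0-only sites. Jun was at 16 of 199 day 0-only sites with Foxa2, or 8.04% (5.01 to 12.7%), and at 12.8% (11.9 to 13.7%) of the others. In held sites the shares were 12.4% (10.4 to 14.8%) and 20.3% (19.8 to 20.8%). Jun was found at 26.0% of the day 0-only sites with osteoblast Runx2 and 11.0% of the others, against 34.5% and 15.8% in held sites. Chondrocyte Runx2 was found at 43.0% of the day 0-only sites with osteoblast Runx2 and 11.5% of the others, against 62.4% and 20.4% in held sites. A peak of the list named for GFP day 3 was found at 30.2% of the day 0-only sites with Jun and 11.9% of the others, against 43.3% and 18.3% in held sites.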
